A study of Mus musculus with 16 samples.

Results

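Polycomb proteins are chromatin regulators that keep developmental genes silent, and the mRNA of 10 of their subunits is described here in embryoid bodies, floating aggregates grown from mouse embryonic stem cells, that lack or regain Wdr5. The members were chosen by symbol, namely Ezh1, Ezh2, Eed, Suz12 and Jarid2 of Polycomb repressive complex 2 (PRC2) and Ring1, Rnf2, Bmi1, Cbx2 and Cbx7 of Polycomb repressive complex 1 (PRC1). All 10 were found once each among the 23282 named loci, and all 10 passed the filter on low counts that left 16130 genes for testing.

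PRC2 places methyl groups on lysine 27 of histone H3 through its catalytic subunit, Ezh1 or Ezh2, and needs Eed and Suz12 for activity. Canonical PRC1 binds this mark through a Cbx protein, and its RING proteins, Ring1 and Rnf2 (also called Ring1b), place ubiquitin on histone H2A. In embryonic stem cells these complexes hold Hox genes and lineage regulators silent, and subunit paralogs are known to be exchanged as cells differentiate. Wdr5, the gene removed here, encodes a WD40-repeat protein of the COMPASS/MLL complexes that methylate lysine 4 of histone H3, and it has also been described in a variant form of PRC1.

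RNA was sequenced at day 6 of SFEBq, a serum-free culture in which dissociated cells reaggregate quickly, in GMEM with 5% KSR and with 2% Matrigel from day 1 of the aggregates. Every group was made from Rx:GFP KI cells, in which the Rx locus, here called Rax, an eye field transcription factor gene, carries a GFP knock-in. In the T48h rescue the Wdr5 KO cells received doxycycline (Dox) at the time labelled T48h to induce human WDR5, and in the T12h rescue they received it at T12h. The KO group was the Wdr5 KO labelled No Dox, and the WT group was wild type and untreated. The series describes the KO as clone #3, so all Wdr5 KO groups rest on 1 clone, and other differences of that clone from WT cannot be told apart from the loss of Wdr5. WT and the KO had no Dox, so its own effect cannot be told apart from that of WDR5, and the labels do not say whether the KO libraries carried the inducible construct.

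The 16 samples were 2 duplicates per group in 2 technical runs each, and the runs were summed to 8 libraries, a and b in each group. Nothing in the labels says that duplicates came from separate cultures, so p-values cover the spread among the summed libraries alone, and that spread may be technical. The libraries held 32476644 to 65687316 estimated fragment counts in named genes. Levels below are CPM, edgeR's library-size-scaled counts with TMM normalisation, except where FPKM, which also corrects for length, is named. A gene was called changed at an edgeR adjusted p under 0.05 (Benjamini-Hochberg over all genes tested), and log2 fold changes are given ± SE. Wdr5 had 280 and 294 CPM in the T48h rescue, 329 and 337 CPM in the T12h rescue, 32.5 and 28.4 CPM in the KO, and 186 and 187 CPM in WT. The order of Wdr5 levels follows the labels, but reads of human WDR5 that aligned to Wdr5 are part of these values. Rax, the marker carried by the reporter, had 0.545 and 0.245 CPM in the T48h rescue, 223 and 215 CPM in the T12h rescue, 0.82 and 0.755 CPM in the KO, and 192 and 197 CPM in WT.

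Promoter stretches of 150 bases are shown for both EZH paralogs, for Suz12 and for Cbx7, because the EZH paralogs lay on opposite sides of WT in the KO, Suz12 shares an E2F motif with Ezh2, and Cbx7 had the widest range of all members. They come from RefSeq on GRCm38.p6 (the assembly of mm10), read 5′ to 3′ on the strand of the gene. Capitals mark a match to an E2F motif (TTTCCCGC, TTTGGCGC, TTTCGCGC or TTTGCCGC) or to the CCAAT box (CCAAT), on either strand.
Ezh2, chr6:47595001-47595150, minus strand: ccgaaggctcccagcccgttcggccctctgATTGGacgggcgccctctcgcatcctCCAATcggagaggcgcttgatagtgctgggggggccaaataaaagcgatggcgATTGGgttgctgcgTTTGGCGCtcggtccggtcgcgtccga
Ezh1, chr11:101226464-101226613, minus strand: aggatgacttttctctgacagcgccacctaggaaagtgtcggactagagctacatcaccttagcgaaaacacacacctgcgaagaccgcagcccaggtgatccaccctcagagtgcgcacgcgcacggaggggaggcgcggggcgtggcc
Suz12, chr11:79992856-79993005, plus strand: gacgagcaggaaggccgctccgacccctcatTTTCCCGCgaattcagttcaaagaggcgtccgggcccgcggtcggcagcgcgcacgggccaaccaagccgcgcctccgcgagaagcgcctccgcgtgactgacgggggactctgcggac
Cbx7, chr15:79932747-79932896, minus strand: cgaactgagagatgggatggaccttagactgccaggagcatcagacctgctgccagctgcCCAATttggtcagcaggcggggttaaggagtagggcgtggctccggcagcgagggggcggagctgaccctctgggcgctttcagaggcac
RefSeq promoters of 300 bases, 250 before and 50 after the start site, were found for 9 of the 10 members. The E2F motif was present in those of Ezh2, at base 4 after the start, and Suz12, at base -219, while 2.265% of all 32851 promoters hold it. The CCAAT box was present in 5 members (Cbx7, Eed, Ezh2, Jarid2 and Suz12) and in 37.41% of all promoters. The GC box, GGGCGG, was present in 6 members and in 35.66% of all promoters, and the E-box, CACGTG, in Bmi1 and in 7.15%. The Ezh1 promoter held none of the 4 motifs, and the stretch of Cbx7 belongs to the RefSeq start, while the deposited table counts 2 start sites in the Cbx7 locus. Members had 17 (Eed) to 41 (Suz12) CpG dinucleotides per promoter, against a median of 7 over all promoters. Every E2F word, the GC box and the E-box contain a CpG. For these motifs the shares over all promoters are therefore not a like background for the members. A motif match is a description of letters and does not show binding.

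All 10 subunits differed among the 4 groups (edgeR, test of any difference), where 80.7% of all genes tested did, and 89.3% of the 8242 genes at least as high as the lowest member. Against WT, the KO had 3 members higher (Ezh1, Eed and Cbx7), 6 lower (Ezh2, Jarid2, Ring1, Rnf2, Bmi1 and Cbx2) and 1 not called (Suz12). In that comparison 64.1% of all genes were called, 31.7% higher and 32.4% lower, and 73.3% of the genes as high as the lowest member. A count of 9 of 10 called is therefore to be read against a background in which most genes of this level were called. The median absolute log2 fold change of the members was 0.90, against 0.75 over all genes and 0.49 over the genes as high as the lowest member. Because the libraries are bulk RNA, fewer cells of a type and less RNA per cell cannot be told apart in any of these values.

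**Figure D1:**
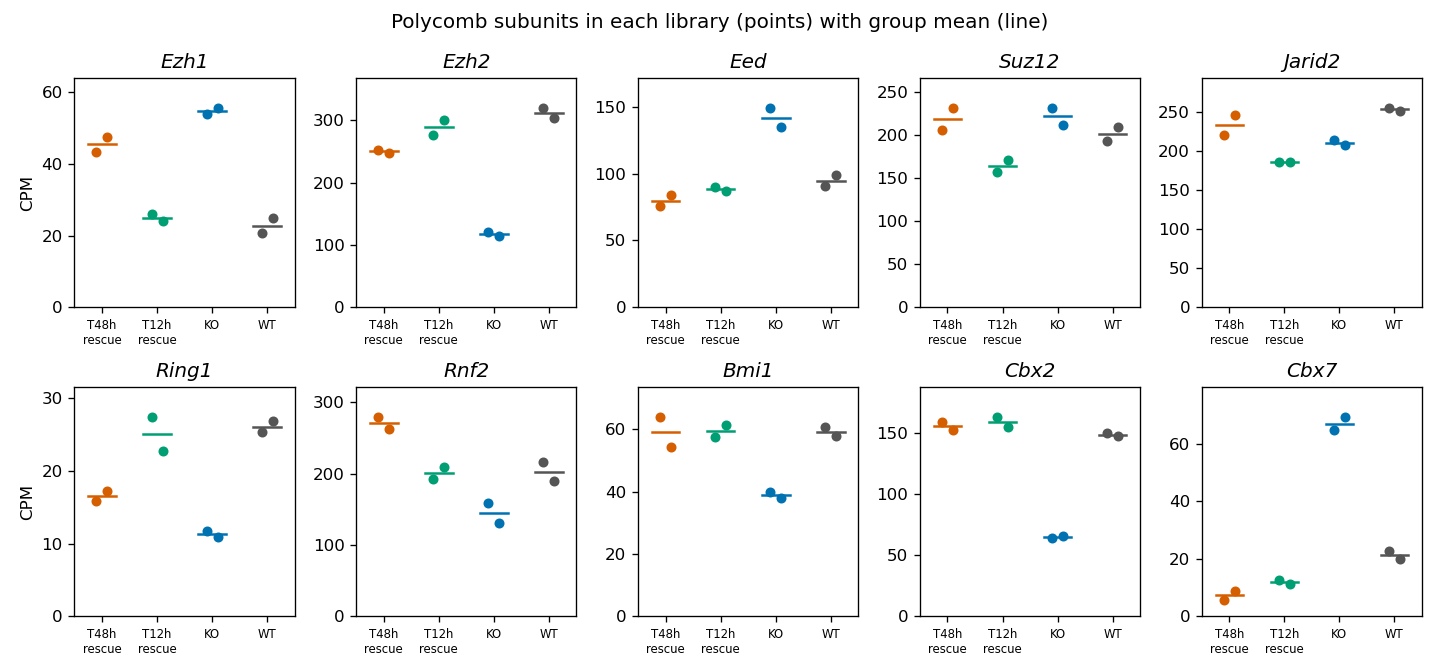
CPM of the 10 subunits in each library (points, 2 per group) with the group mean (line), in the T48h rescue, the T12h rescue, the KO and WT from left to right, each panel with its own axis from 0. Ezh2 and Cbx2 are lowest in the KO, Cbx7 and Eed are highest there, and Ezh1 is high in both the T48h rescue and the KO.

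Ezh2, the main catalytic subunit of PRC2 in dividing cells (chromosome 6, 47530177 to 47595046), had 253 and 248 CPM in the T48h rescue, 277 and 301 CPM in the T12h rescue, 121 and 115 CPM in the KO, and 319 and 304 CPM in WT. Both KO libraries lay well below the other 6, and the T48h rescue lay below both the T12h rescue and WT without overlap. Ezh2 fell in the KO by 1.40 ± 0.07 on the log2 scale against WT (edgeR adjusted p = 2.28e-09). It was higher than the KO in the T12h rescue by 1.29 ± 0.07 (edgeR adjusted p = 4.39e-09) and in the T48h rescue by 1.09 ± 0.07 (edgeR adjusted p = 2.02e-08). The T12h rescue was not called different from WT, with a log2 fold change of -0.11 (95% interval -0.26 to 0.04). In the T48h rescue Ezh2 stayed below WT, at -0.31 ± 0.07 (edgeR adjusted p = 0.00235).

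Ezh1, the second catalytic subunit, which is known to prevail in cells that divide little (chromosome 11, 101191115 to 101226450), ran the other way. It had 43.3 and 47.7 CPM in the T48h rescue, 25.97 and 24.1 CPM in the T12h rescue, 54.1 and 55.6 CPM in the KO, and 20.6 and 24.96 CPM in WT. The T48h rescue and KO libraries were the high ones, and those of the T12h rescue and WT overlapped at the low end. Ezh1 rose in the KO by 1.27 ± 0.12 against WT (edgeR adjusted p = 8.51e-07) and was below the KO in the T12h rescue, at -1.13 ± 0.12 (edgeR adjusted p = 2.17e-06). The T48h rescue was not called different from the KO, at -0.27 ± 0.12 (edgeR adjusted p = 0.056). However, 10 of 17 alternative settings called it, with adjusted p between 0.00667 and 0.0482. These settings include leaving out either WT library, and WT is not part of that comparison. The T48h rescue was above WT by 1.00 ± 0.12 (edgeR adjusted p = 1.45e-05). Across the 8 libraries Ezh1 and Ezh2 had a Pearson correlation of -0.83 in log2 CPM, a description of 4 groups of 2.

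Eed, the subunit that binds trimethylated lysine 27 and stimulates the enzyme (chromosome 7, 89954654 to 89980976), had 75.8 and 83.6 CPM in the T48h rescue, 90.0 and 87.0 CPM in the T12h rescue, 149 and 135 CPM in the KO, and 90.4 and 99.0 CPM in WT. The KO libraries stood above the other 6. Eed rose in the KO by 0.58 ± 0.09 against WT (edgeR adjusted p = 5.06e-05), so that an obligate partner of Ezh2 was higher where Ezh2 was lower. It was lower than the KO, at -0.68 ± 0.08 in the T12h rescue (edgeR adjusted p = 1.17e-05) and at -0.83 ± 0.09 in the T48h rescue (edgeR adjusted p = 1.66e-06). The T48h rescue was also below WT, at -0.25 ± 0.09 (edgeR adjusted p = 0.0297), but this call was lost without T48h rescue library a (-0.21, adjusted p = 0.12) or without WT library b (-0.24, adjusted p = 0.113).

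Suz12, a scaffold of PRC2 (chromosome 11, 79993106 to 80034123), varied least among the members over the group means. It had 206 and 231 CPM in the T48h rescue, 157 and 171 CPM in the T12h rescue, 231 and 212 CPM in the KO, and 193 and 209 CPM in WT. The T12h rescue libraries were the lowest, and the T48h rescue overlapped both the KO and WT. The KO was not called different from WT, at 0.14 ± 0.08 (edgeR adjusted p = 0.157), though scaling by RLE called it (0.20, edgeR adjusted p = 0.0477). The T12h rescue was lower than the KO, at -0.43 ± 0.08 (edgeR adjusted p = 0.000491) and lower than WT, at -0.29 ± 0.08 (edgeR adjusted p = 0.0332). The call against WT was lost when any 1 of the T12h rescue or WT libraries was left out, with edgeR adjusted p between 0.0623 and 0.245.

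Jarid2, an accessory subunit that helps to recruit PRC2 (chromosome 13, 44730774 to 44921643), had 222 and 247 CPM in the T48h rescue, 187 and 187 CPM in the T12h rescue, 214 and 208 CPM in the KO, and 255 and 252 CPM in WT. WT was highest and the T12h rescue lowest, with no overlap between any pair of groups. Jarid2 fell in the KO by 0.26 ± 0.07 against WT (edgeR adjusted p = 0.00537). In the T12h rescue it was not back at the WT level but lower still, at -0.44 ± 0.07 against WT (edgeR adjusted p = 0.0011). The T12h rescue was also called lower than the KO, at -0.18 ± 0.07 (edgeR adjusted p = 0.0413), a call lost without either T12h rescue library, either KO library or either WT library, with edgeR adjusted p between 0.065 and 0.229. The T48h rescue was called different from neither the KO (0.15 ± 0.07) nor WT (-0.12 ± 0.07), with edgeR adjusted p of 0.0794 and 0.202. Upper-quartile scaling called it below WT (-0.24, edgeR adjusted p = 0.0124), and leaving out T48h rescue library a called it above the KO (0.19, edgeR adjusted p = 0.0496).

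Among the PRC1 members, Ring1 and Rnf2 encode the paired E3 ligases. Ring1 (chromosome 17, 34020772 to 34024680) had 15.8 and 17.2 CPM in the T48h rescue, 27.3 and 22.7 CPM in the T12h rescue, 11.8 and 10.95 CPM in the KO, and 25.3 and 26.8 CPM in WT. The T12h rescue and WT overlapped at the top, the KO was lowest, and the T48h rescue lay between them. Ring1 fell in the KO by 1.19 ± 0.15 against WT (edgeR adjusted p = 1.04e-05). It was above the KO by 1.14 ± 0.15 in the T12h rescue (edgeR adjusted p = 1.53e-05) and by 0.53 ± 0.15 in the T48h rescue (edgeR adjusted p = 0.00592). The T48h rescue stayed below WT, at -0.66 ± 0.15 (edgeR adjusted p = 0.00215).

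Rnf2, the more active ligase of the pair in embryonic stem cells (chromosome 1, 151458268 to 151500902), had 279 and 263 CPM in the T48h rescue, 192 and 209 CPM in the T12h rescue, 158 and 131 CPM in the KO, and 216 and 189 CPM in WT. Here the T48h rescue was the highest group, above WT, while the KO was the lowest. Rnf2 fell in the KO by 0.48 ± 0.10 against WT (edgeR adjusted p = 0.00067). It was above the KO by 0.47 ± 0.10 in the T12h rescue (edgeR adjusted p = 0.000826) and by 0.90 ± 0.10 in the T48h rescue (edgeR adjusted p = 2.45e-06). The first of these was lost with limma on log2(FPKM + 1), at an adjusted p of 0.0738. The T48h rescue was above WT by 0.42 ± 0.10 (edgeR adjusted p = 0.00292), a call lost without WT library b (0.27, edgeR adjusted p = 0.0745) and with limma on log2(FPKM + 1) (adjusted p = 0.0918). Ring1 and Rnf2 thus both stood below WT in the KO, but lay on opposite sides of WT in the T48h rescue.

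Bmi1, a PCGF protein of canonical PRC1 also known as Pcgf4 (chromosome 2, 18677018 to 18686629), had 63.9 and 54.4 CPM in the T48h rescue, 57.5 and 61.3 CPM in the T12h rescue, 40.0 and 38.1 CPM in the KO, and 60.8 and 57.8 CPM in WT. The KO libraries were the only low ones, and the other 3 groups overlapped. Bmi1 fell in the KO by 0.60 ± 0.10 against WT (edgeR adjusted p = 0.000149) and was above the KO by 0.60 ± 0.10 in both the T12h rescue (edgeR adjusted p = 0.000136) and the T48h rescue (edgeR adjusted p = 0.000143). Neither rescue was called different from WT, and the 95% interval was -0.22 to 0.21 for the T48h rescue and -0.21 to 0.22 for the T12h rescue.

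Cbx2 and Cbx7 are chromodomain subunits that compete for the same place in canonical PRC1, and Cbx7 is known as the main Cbx protein of undifferentiated embryonic stem cells. Cbx2 (chromosome 11, 119023029 to 119031270) had 159.6 and 152 CPM in the T48h rescue, 163 and 155 CPM in the T12h rescue, 64.4 and 66.2 CPM in the KO, and 150.1 and 148 CPM in WT. Both KO libraries lay far below the other 6, which spanned a narrow range. Cbx2 fell in the KO by 1.19 ± 0.07 against WT (edgeR adjusted p = 1.09e-08). It was above the KO by 1.29 ± 0.07 in the T12h rescue (edgeR adjusted p = 4.71e-09) and by 1.26 ± 0.07 in the T48h rescue (edgeR adjusted p = 5.23e-09). Neither rescue was called different from WT, with log2 fold changes of 0.07 (95% interval -0.08 to 0.22) for the T48h rescue and 0.10 (-0.05 to 0.25) for the T12h rescue.

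Cbx7 (chromosome 15, 79915807 to 79971105) had 5.77 and 8.85 CPM in the T48h rescue, 12.8 and 11.3 CPM in the T12h rescue, 64.6 and 69.2 CPM in the KO, and 22.7 and 20.03 CPM in WT. Its groups did not overlap, with the KO highest, then WT, then the T12h rescue, and the T48h rescue lowest. Cbx7 rose in the KO by 1.65 ± 0.17 against WT (edgeR adjusted p = 1.88e-06). It was below the KO, at -2.47 ± 0.17 in the T12h rescue (edgeR adjusted p = 4.72e-08) and at -3.19 ± 0.18 in the T48h rescue (edgeR adjusted p = 5.43e-09). Both rescues also lay below WT, at -1.54 ± 0.18 in the T48h rescue (edgeR adjusted p = 1.01e-05) and at -0.82 ± 0.17 in the T12h rescue (edgeR adjusted p = 0.00597). The T12h call against WT was lost without T12h rescue library b (-0.74, edgeR adjusted p = 0.0657) or without WT library a (-0.73, edgeR adjusted p = 0.0685).

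**Figure D2:**
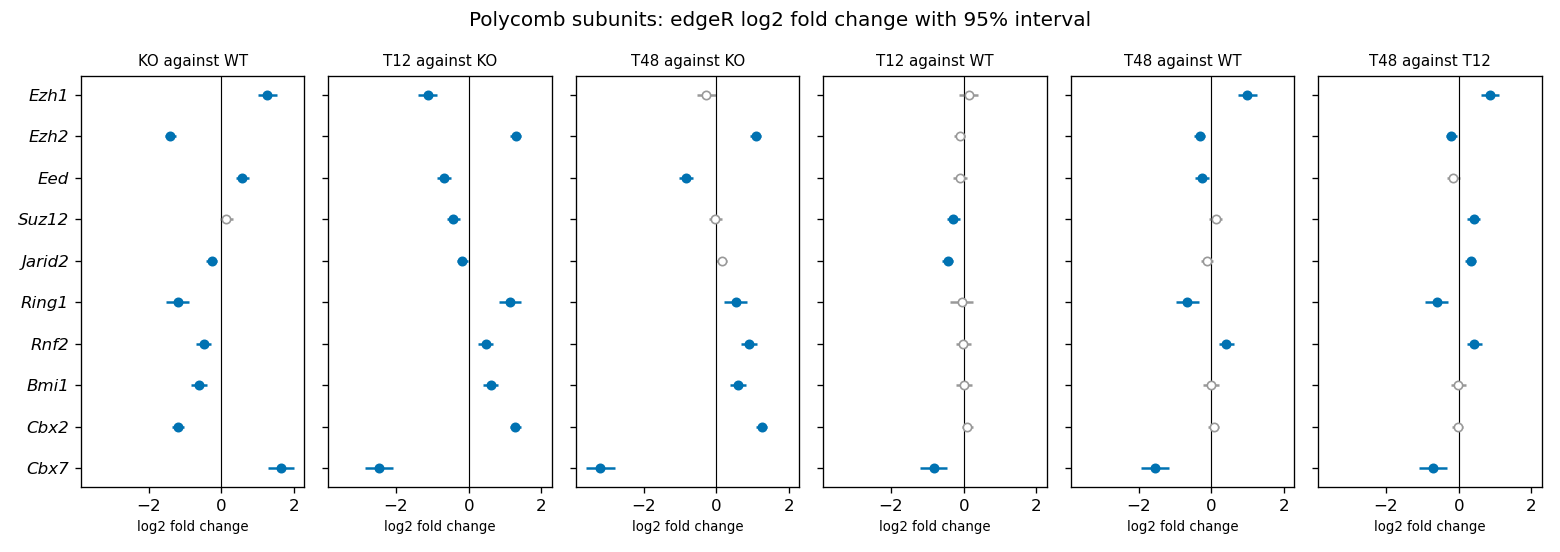
EdgeR log2 fold changes of the 10 subunits in the 6 comparisons (points) with 95% intervals (bars), filled blue where the adjusted p was under 0.05 and open grey otherwise. Panel titles name the group on top of the fold change first, T48 and T12 being the rescues. Cbx7 spans 1.65 in the KO against WT to -3.19 in the T48h rescue against the KO, and most intervals of the T12h rescue against WT include 0.

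Read by comparison, the T12h rescue against the KO had 5 members higher and 5 lower, where 64.8% of all genes were called, 32.8% higher and 32.1% lower, and 72.9% of the genes as high as the lowest member. The T48h rescue against the KO had 5 higher, 2 lower and 3 not called, where 67.3% of all genes were called, 34.2% higher and 33.2% lower, and 75.7% of the genes as high as the lowest member. Both share the KO libraries with the comparison of the KO with WT, so that a high or low KO library enters all of these comparisons. The rescues against WT do not use the KO libraries. There the T12h rescue had 3 members lower (Suz12, Jarid2 and Cbx7), none higher and 7 not called, where 14.0% of all genes were called, 7.90% higher and 6.11% lower, and 19.8% of those as high as the lowest member. The count of 3 became 1 without WT library a or without T12h rescue library b, and the member left was Jarid2. At an unadjusted p under 0.05 no further member was below WT or above it in the T12h rescue, and DESeq2 called 3 members as well.

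The T48h rescue against WT had 2 members higher (Ezh1 and Rnf2), 4 lower (Ezh2, Eed, Ring1 and Cbx7) and 4 not called. Of all genes, 47.3% were called, 23.9% higher and 23.4% lower, and 54.7% of the genes as high as the lowest member. The split over all genes was 3858 higher and 3769 lower, or 3053 higher and 4791 lower with upper-quartile scaling. The 2 rescues differed from each other in 7 of the 10 members, where 50.2% of all genes were called, 24.9% higher and 25.3% lower, and 58.2% of the genes as high as the lowest member. Ezh1, Suz12, Jarid2 and Rnf2 were higher in the T48h rescue, and Ezh2, Ring1 and Cbx7 were lower. Ezh1 gave the widest of these differences, at 0.86 ± 0.12 (edgeR adjusted p = 4.59e-05). Ezh2 gave the narrowest, at -0.21 ± 0.07 (edgeR adjusted p = 0.0257), a call lost without T48h rescue library b (adjusted p = 0.0793) or T12h rescue library b (adjusted p = 0.0883). The members' median absolute log2 fold change was 0.28 for the T48h rescue against WT, beside 0.29 over the genes as high as the lowest member, and 0.10 for the T12h rescue against WT, beside 0.15.

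Levels can be set between genes only per length, so the makeup of the complexes is given in FPKM. Ezh2 averaged 83.7 ± 1.04 FPKM in the T48h rescue, 97.1 ± 5.42 FPKM in the T12h rescue, 41.7 ± 1.24 FPKM in the KO, and 105 ± 4.13 FPKM in WT (SD, n = 2 each). Ezh1 averaged 9.30 ± 0.613 FPKM in the T48h rescue, 5.14 ± 0.29 FPKM in the T12h rescue, 11.9 ± 0.321 FPKM in the KO, and 4.68 ± 0.611 FPKM in WT. Ezh2 mRNA therefore remained the more abundant EZH transcript in every library. Its FPKM exceeded those of Ezh1 9.01-fold in the T48h rescue, 18.9-fold in the T12h rescue, 3.51-fold in the KO and 22.5-fold in WT. As a share of the FPKM of both genes, Ezh1 held 9.51% and 10.5% in the T48h rescue, 5.42% and 4.66% in the T12h rescue, 21.5% and 22.9% in the KO, and 3.797% and 4.78% in WT. The T12h rescue and WT overlapped in this share, and the KO share was the highest.

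The order of Cbx2 and Cbx7 per length was turned round in the KO. Cbx7 held 4.54% and 7.05% of the FPKM of both genes in the T48h rescue, 9.27% and 8.67% in the T12h rescue, 56.7% and 57.8% in the KO, and 16.5% and 15.1% in WT. The KO share was the highest and the groups did not overlap. Cbx7 was above Cbx2 per length in both KO libraries, with 21.4 ± 1.22 FPKM for Cbx7 and 16.0 ± 0.422 FPKM for Cbx2 (SD, n = 2), and below it in the other 6 libraries. Cbx6, another Cbx gene, has no value of its own, because the deposited table joins it with Npcd and Nptxr in 1 locus.

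Ring1 held 5.56% and 6.96% of the FPKM of both ligases in the T48h rescue, 14.9% and 11.1% in the T12h rescue, 7.73% and 8.84% in the KO, and 10.9% and 14.2% in WT. Rnf2 was the more abundant in every library, and the T48h rescue had the lowest Ring1 share. Within PRC2, Ezh2 was 2.39-fold above Eed in FPKM in the T48h rescue, 2.48-fold in the T12h rescue and 2.50-fold in WT, but below it in the KO, at 0.633-fold. Ranked by FPKM, the highest member was Rnf2 in the T48h rescue (109 ± 12.4), Ezh2 in the T12h rescue (97.1 ± 5.42), Eed in the KO (65.9 ± 4.17) and Ezh2 in WT (105 ± 4.13). Neighbours in this order whose libraries overlapped were Eed and Rnf2 (60.0 ± 8.37) in the KO, Eed and Suz12 in WT, and Cbx2, Eed and Jarid2 in the T48h rescue. The lowest was Cbx7 in both rescues, Ring1 in the KO and Ezh1 in WT.

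**Figure D3:**
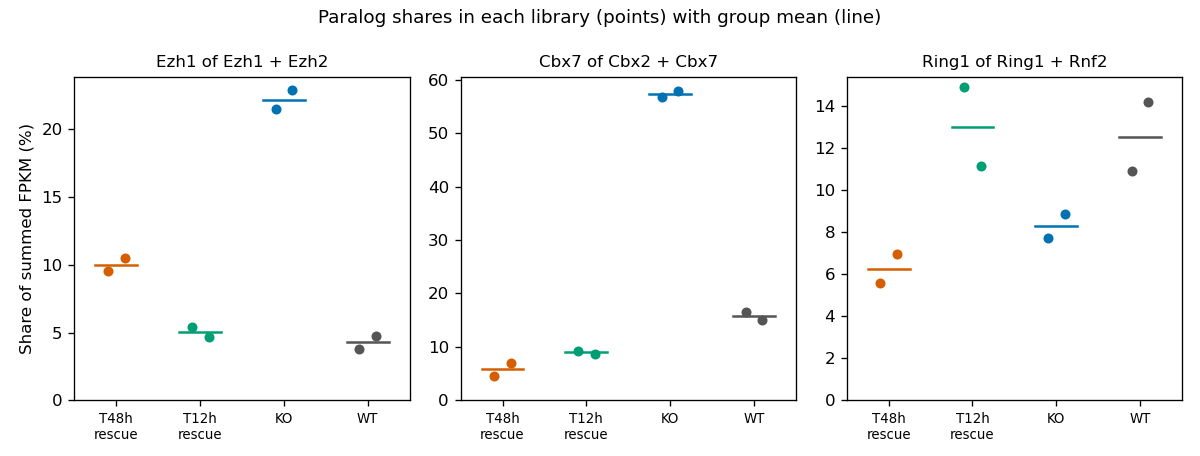
Share (%) of Ezh1 in the summed FPKM of Ezh1 and Ezh2, of Cbx7 in that of Cbx2 and Cbx7, and of Ring1 in that of Ring1 and Rnf2, in each library (points) with the group mean (line). The KO libraries stand at 21.5% and 22.9% for Ezh1 and at 56.7% and 57.8% for Cbx7, above all other libraries, while the Ring1 share is lowest in the T48h rescue.

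The other subunits and partners of PRC2, PRC1, the PR-DUB complex, which removes ubiquitin from H2A, and the lysine 27 demethylases were read from lists of known complex members. Of these 52 further genes, 51 were tested. Their shares are set beside those of all genes and then of the genes as high as the lowest member, a level that some, such as Pcgf1, do not reach. In the KO against WT, 13 were higher, 22 lower and 16 not called, or 68.6% called, beside 64.1% and 73.3%. In the T12h rescue against WT, 2 were higher, 4 lower and 45 not called, or 11.8% called, beside 14.0% and 19.8%. In the T48h rescue against WT, 18 were higher, 11 lower and 22 not called, or 56.9% called, beside 47.3% and 54.7%. In the T48h rescue against the T12h rescue 20 were higher, 13 lower and 18 not called, or 64.7% called, beside 50.2% and 58.2%. Against the KO, 24 were higher and 10 lower in the T48h rescue (66.7% called, beside 67.3% and 75.7%). There 20 were higher and 15 lower in the T12h rescue (68.6% called, beside 64.8% and 72.9%).

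In the PRC2 lists, Rbbp7, a histone-binding core subunit shared with other complexes, had 852 and 835 CPM in the T48h rescue, 259.7 and 282 CPM in the T12h rescue, 473 and 475 CPM in the KO, and 238 and 251 CPM in WT. It was highest in the T48h rescue, where it lay 1.64 ± 0.07 log2 units above the T12h rescue (edgeR adjusted p = 2.93e-10), and it rose in the KO against WT by 0.95 ± 0.07 (edgeR adjusted p = 4.63e-08). Its paralog Rbbp4 was not called in the KO against WT. Epop, which links PRC2 to elongin, had 43.2 and 47.2 CPM in the T48h rescue, 61.0 and 57.0 CPM in the T12h rescue, 149.5 and 163 CPM in the KO, and 57.8 and 66.5 CPM in WT. Its rise in the KO was 1.33 ± 0.09 against WT (edgeR adjusted p = 4.9e-08). Phf1 and Phf19, both Polycomb-like proteins, moved apart in the KO against WT, at 1.26 (edgeR adjusted p = 0.000126) and -1.55 (edgeR adjusted p = 0.00195). Mtf2, the third Polycomb-like protein, was highest in the T48h rescue, with 225 and 220 CPM there, 142 and 149 CPM in the T12h rescue, 148 and 145 CPM in the KO, and 178 and 175 CPM in WT.

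In the PRC1 lists, Pcgf2, the paralog of Bmi1, fell in the KO by 0.53 ± 0.10 against WT (edgeR adjusted p = 0.000586), in the same direction as Bmi1, while Pcgf5 and Pcgf6, of variant PRC1, rose by 0.67 ± 0.15 and 0.28 ± 0.10. The other PCGF genes, Pcgf1 (-0.54, edgeR adjusted p = 0.256) and Pcgf3 (0.04, edgeR adjusted p = 0.652), were not called. Of the Polyhomeotic genes of canonical PRC1, Phc1 was higher in the KO, at 0.56 ± 0.07. Phc2 and Phc3 were lower, at -0.68 ± 0.08 and -0.92 ± 0.12. Rybp and Yaf2 are paralogs that compete with Cbx proteins for RING1 proteins. Yaf2 had 82.1 and 77.3 CPM in the T48h rescue, 44.5 and 53.0 CPM in the T12h rescue, 16.5 and 13.7 CPM in the KO, and 38.2 and 40.4 CPM in WT. Rybp had 71.5 and 68.7 CPM in the T48h rescue, 19.5 and 22.1 CPM in the T12h rescue, 49.5 and 44.2 CPM in the KO, and 35.0 and 30.8 CPM in WT. Yaf2 fell in the KO by 1.37 ± 0.12 (edgeR adjusted p = 4.84e-07) and Rybp rose there by 0.51 ± 0.11 (edgeR adjusted p = 0.00134), and both were highest in the T48h rescue. By gene names that add -ps to a symbol, GENCODE holds a Rybp pseudogene and 8 for Cbx3, so reads of these 2 genes may be shared with their copies. No such name was found for the 10 members, but copies under other names were not searched.

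Among PR-DUB genes, Asxl3 had 21.8 and 19.7 CPM in the T48h rescue, 29.1 and 26.3 CPM in the T12h rescue, 1.17 and 0.863 CPM in the KO, and 27.6 and 29.1 CPM in WT. It fell in the KO by 4.76 ± 0.19 against WT (edgeR adjusted p = 2.02e-10), and its paralogs Asxl1 and Asxl2 had -0.29 and 0.58 (edgeR adjusted p = 0.0033 and 0.000177). Kdm6b, a lysine 27 demethylase, had 246 and 262 CPM in the T48h rescue, 150.4 and 138 CPM in the T12h rescue, 98.9 and 99.6 CPM in the KO, and 149.9 and 142 CPM in WT. The KO was thus low and the T48h rescue high for this gene.

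**Figure D4:**
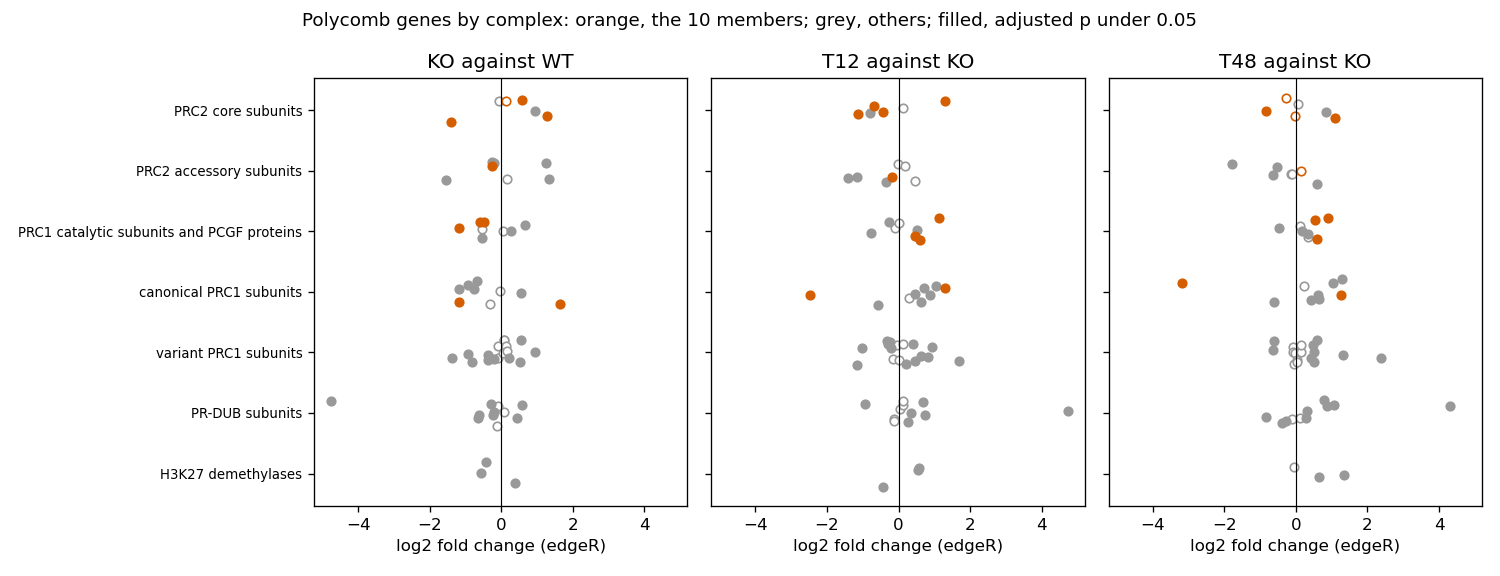
EdgeR log2 fold changes of all tested genes of the Polycomb lists (1 point per gene, rows by complex) in the KO against WT, the T12h rescue against the KO and the T48h rescue against the KO, with the 10 members in orange, the others in grey, and filled points at an adjusted p under 0.05. Asxl3, in the row of PR-DUB subunits, lies at -4.76 in the first panel, and most genes lie within 2 units of 0.

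Hox clusters and the Cdkn2 genes, the best known loci that Polycomb complexes silence, were read as summed CPM. The HoxA cluster had 36.6 and 38.1 CPM in the T48h rescue, 1.13 and 1.43 CPM in the T12h rescue, 3.18 and 4.802 CPM in the KO, and 1.41 and 1.37 CPM in WT. HoxB had 147 and 148 CPM in the T48h rescue, 0.888 and 2.00 CPM in the T12h rescue, 8.55 and 7.42 CPM in the KO, and 0.888 and 0.831 CPM in WT. HoxD had 20.9 and 26.8 CPM in the T48h rescue, 0.537 and 2.00 CPM in the T12h rescue, 1.20 and 1.43 CPM in the KO, and 0.472 and 0.742 CPM in WT. These 3 clusters were thus highest in the T48h rescue. HoxC was an exception, with 5.34 and 5.54 CPM in the T48h rescue, 0.574 and 1.21 CPM in the T12h rescue, 4.31 and 6.21 CPM in the KO, and 1.11 and 0.653 CPM in WT, so that the T48h rescue and the KO overlapped.

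Single genes show how these sums arose. Hoxb2, a hindbrain gene, had 43.9 and 40.5 CPM in the T48h rescue, 0.111 and 0.154 CPM in the T12h rescue, 0.103 and 0.135 CPM in the KO, and 0.0277 and 0.0297 CPM in WT. Hoxb9, a more posterior gene, had 1.03 and 1.152 CPM in the T48h rescue, 0.0185 and 0.132 CPM in the T12h rescue, 6.97 and 5.56 CPM in the KO, and 0.166 and 0.208 CPM in WT. The group that was high therefore differed between genes of 1 cluster. Cdkn2a, a cell cycle inhibitor locus, had 0.735 and 0.588 CPM in the T48h rescue, 2.15 and 2.29 CPM in the T12h rescue, 5.32 and 6.47 CPM in the KO, and 1.61 and 1.84 CPM in WT. It rose in the KO by 1.77 ± 0.34 against WT (edgeR adjusted p = 0.000544) and was lowest in the T48h rescue. Of the 43 target loci, 31 passed the filter on low counts. The filter passes a locus that is high in a single group, so the counts that follow are a description. In the KO against WT 9 of the 31 were higher and 1 lower, beside 31.7% higher and 32.4% lower over all genes. In the T48h rescue against WT 23 were higher and 1 lower, beside 23.9% and 23.4%. In the T12h rescue against WT none was higher and 1 lower, beside 7.90% and 6.11%.

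**Figure D5:**
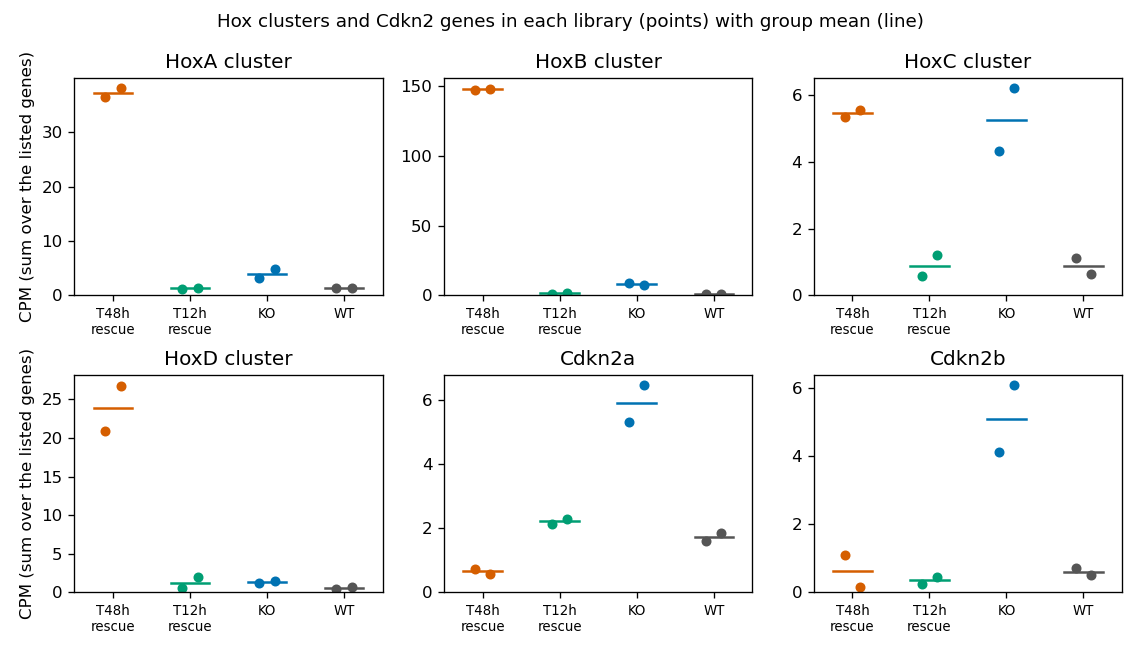
Summed CPM of the listed genes of each Hox cluster, and CPM of Cdkn2a and Cdkn2b, in each library (points) with the group mean (line), from the T48h rescue at the left to WT at the right, each panel with its own axis from 0. HoxA, HoxB and HoxD are high in the T48h rescue, at 147 and 148 CPM for HoxB, and Cdkn2a and Cdkn2b are high in the KO.

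The makeup of the aggregates differed between the groups in the same libraries. Pluripotent cell markers (8 of 8 called higher in the KO against WT) summed to 171 and 187 CPM in the T48h rescue, 127 and 123 CPM in the T12h rescue, 1233 and 1171 CPM in the KO, and 250.4 and 262 CPM in WT. Among these, Pou5f1 had 2.61 and 4.804 CPM in the T48h rescue, 5.98 and 7.36 CPM in the T12h rescue, 228 and 234 CPM in the KO, and 21.99 and 21.4 CPM in WT. The marker sum was highest in the KO and then in WT, as was Cbx7. Of the rescues the T48h one had the higher marker sum and the lower Cbx7, but its single markers were mixed. In the T48h against the T12h rescue 3 of the 8 were higher, 4 lower and 1 not called, and Pou5f1 was among the lower ones. Over all genes, 24.9% were higher and 25.3% lower in that comparison. Eye field markers (7 of 7 loci lower in the T48h rescue and in the KO against WT) summed to 20.8 and 18.7 CPM in the T48h rescue, 1597 and 1627 CPM in the T12h rescue, 9.11 and 5.64 CPM in the KO, and 1418 and 1357 CPM in WT. Cardiac and lateral mesoderm markers (9 of 9 loci higher in the T48h rescue against WT) summed to 2751 and 2674 CPM in the T48h rescue, 91.3 and 105 CPM in the T12h rescue, 232 and 244 CPM in the KO, and 75.1 and 79.3 CPM in WT.

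Endothelial markers (5 of 5 called higher in the T48h rescue against WT) summed to 714 and 680 CPM in the T48h rescue, 147 and 139 CPM in the T12h rescue, 128 and 119 CPM in the KO, and 95.5 and 93.1 CPM in WT. The KO sum hides opposite changes of single genes. In the KO against WT 3 of the 5 were higher, 1 lower and 1 not called, beside 31.7% higher and 32.4% lower over all genes. Kdr had a log2 fold change of -5.36 there, while Tek had 4.40 and Cdh5 had 4.21. Endoderm markers (3 of 5 higher and 1 lower, in the T48h rescue and in the KO against WT) summed to 325 and 335 CPM in the T48h rescue, 104 and 119 CPM in the T12h rescue, 337 and 337 CPM in the KO, and 110.4 and 106 CPM in WT. The genes that were higher differed. Against WT, Foxa2 had 2.44 in the KO and 0.06, not called, in the T48h rescue. Sox7 had 1.71 in the T48h rescue and 0.26, not called, in the KO. Sox17 was higher in both, by 2.90 in the KO and 0.31 in the T48h rescue. Fibroblast (feeder) markers (3 of 4 loci tested higher in the T48h rescue against WT) summed to 715 and 796 CPM in the T48h rescue, 122 and 95.9 CPM in the T12h rescue, 18.8 and 16.2 CPM in the KO, and 66.1 and 66.3 CPM in WT. The 3 higher loci were the collagen genes of the list. Thy1 was not called there, at 0.44 (edgeR adjusted p = 0.595), and S100a4 did not pass the filter on low counts. No defining marker of any list was at 0 in every library. The part of these cell types in the values of the Polycomb subunits was not tested.

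Most proliferation genes, like Ezh2, were lower in the KO than in WT and higher in both rescues than in the KO. Their sum was 5188 and 4986 CPM in the T48h rescue, 4601 and 4906 CPM in the T12h rescue, 3148 and 3163 CPM in the KO, and 4703 and 4549 CPM in WT. In the KO against WT 9 of 12 were lower and 1 higher, beside 32.4% lower and 31.7% higher over all genes. In the T48h rescue against the KO 8 were higher and 2 lower, beside 34.2% and 33.2%, and in the T12h rescue against the KO 9 were higher and none lower, beside 32.8% and 32.1%. Mki67, a marker of cycling cells, had 1449 and 1380 CPM in the T48h rescue, 936 and 1074 CPM in the T12h rescue, 454 and 461 CPM in the KO, and 1162 and 1008 CPM in WT. In the T48h rescue against WT 3 of the 12 were higher, 1 lower and 8 not called, with a median log2 fold change of -0.05. The part of proliferation in the values of Ezh2 and Ezh1 was not tested.

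Neighbouring genes did not always move with a member. Commd3 lies 801 bases from Bmi1 and went the other way in the KO against WT, at 2.03 (edgeR adjusted p = 9.94e-09) against -0.60 for Bmi1. Cbx8 lies 7165 bases from Cbx2 and was called in none of the 6 comparisons, with log2 fold changes from -0.32 to 0.30. Cul1, 4037 bases from Ezh2, fell in the KO by 0.45 (edgeR adjusted p = 0.000265) in the same direction as Ezh2. H2-K1, 20438 bases from Ring1, and Dtnbp1, 436 bases from Jarid2, also moved with the member there. They had -2.63 (edgeR adjusted p = 1.72e-08) and -1.24 (edgeR adjusted p = 9.09e-06). Beside Rnf2, Trmt1l at 84 bases was not called there, and Fam129a at 70470 bases went the other way, at 3.88 (edgeR adjusted p = 5.54e-08). The deposited files do not say whether counting used strand, so reads from a member and an antisense transcript could not be separated, but no member overlapped another named locus.

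Correlations over the 8 libraries in log2 CPM describe which patterns were most alike, and the libraries share 4 groups. The highest among members were Bmi1 with Cbx2 (r = 0.97), Ezh2 with Cbx2, Eed with Cbx7 and Ezh2 with Bmi1 (0.96 each), and the most negative were Eed with Cbx2 (-0.95) and Ezh1 with Ring1 (-0.94). Over the 10445 genes at 5 CPM or more on average, the genes most like Cbx7 were Synm (r = 0.997), Rhox5 (0.996) and Vwa2 (0.996). Those most like Ezh2 were Mab21l2 (0.999), Sp4 (0.997) and Cdh2 (0.997), and those most like Cbx2 were Map2k5, Man2a2 and Acp2 (0.998 each). With 4 groups in pairs, such values are high for any genes that share an order of groups.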

How the data were processed

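Per the labels' protocols, RNA purified on RNeasy columns and treated with DNase went into TruSeq libraries. The tools named, per the submitters' processing notes, are Cufflinks 2.2.1, TopHat2 2.1.1, deepTools and SAMtools 1.5, on mm10. The annotation and the use of strand are not stated in these notes.

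Per the file headers, the deposited tables hold estimated counts of fragments per locus and FPKM for 28432 loci in 16 columns. The estimated counts had been multiplied by 1 factor per library. A fragment was worth 0.6301 to 1.288, and 95.63% to 96.58% of low values were whole multiples within 0.02. This factor was divided out. Columns name the group only. Technical columns were paired by the chi-square of their counts per degree of freedom (1.609 to 1.867 within pairs, 9.533 to 17.37 between), summed and rounded to whole numbers. Loci without a name (5143, with 3.157% to 6.124% of counts) and 8 loci marked as holding too many fragments were left out. The 112 companion columns entered no test.

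Genes were tested with edgeR 4.0.16 (R 4.3.3): quasi-likelihood F-test, TMM, filterByExpr, all 4 groups in 1 fit, 4 residual degrees of freedom, common biological coefficient of variation 12.61%. SE is the absolute log2 fold change over the square root of F. The test was also run on simulated counts with a single spread for all genes and few changed genes. These data differ in both, so no result rests on that run. FPKM, the mean of a pair's columns, serve levels between genes and shares, and FPKM alternatives used limma 3.58.1 on log2(FPKM + 1) or log2(FPKM + 0.1). DESeq2 1.42.0 was another alternative. Member counts ranged from 212 to 15751 per library.

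The members and the 15 lists were chosen with earlier results of these data known. Named genes are all members, up to 4 genes per other Polycomb list and comparison with the smallest adjusted p at 1 CPM or more, up to 3 per marker list, the 3 genes most like each of the 3 members of widest range, and Wdr5 and Rax. Paralogs (Rbbp4, Asxl1, Pcgf1, Pcgf2, Pcgf3, Pcgf6, Phc3, Cbx8, Mtf2), Hox genes and neighbours set beside these were named after their values were seen. Epop was matched to its row by a RefSeq synonym. The replicate numbers could not be used for pairing.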

Additional observations from a re-analysis of the deposited data

Results flagged for a closer look

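For 7 of the 10 subunits the difference from the KO was not the same in the T48h and T12h rescues. This was tested as the T48h rescue against the T12h rescue in the same edgeR fit. The log2 difference was 0.86 for Ezh1 (edgeR adjusted p = 4.59e-05), 0.43 for Rnf2 (0.00211), 0.41 for Suz12 (0.00106) and 0.33 for Jarid2 (0.00183). It was -0.72 for Cbx7 (edgeR adjusted p = 0.00445), -0.60 for Ring1 (0.00359) and -0.21 for Ezh2 (0.0257). In each case both T48h rescue libraries lay on the same side of both T12h rescue libraries. The same held for Eed, which was not called, and how many of all genes do so was not counted. Of all genes tested, 50.2% were called in this comparison, and 58.2% of the genes as high as the lowest member. Cardiac, endothelial and fibroblast marker sums were higher in the T48h rescue and the eye field sum was lower, and their part in these differences was not tested.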

How the results depend on the processing

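Over 17 alternatives (scaling, filter, test, groups in the fit, technical columns, chromosome 8, single libraries left out), the members' fold changes kept direction and call in 953 cases, lost the call in 25, gained it in 15 and reversed in 27. The members called in the T12h rescue against WT numbered 3, and 1 to 3 with a library left out. Reversals concerned values that were not called. Bmi1 in the T48h rescue against WT had 0.0042 with RLE scaling and with DESeq2, 0.043 with 1 technical column, 0.0073 without chromosome 8 and -0.16 to 0.095 with a library left out. Bmi1 in the T12h rescue against WT had -0.0013 with RLE scaling and with DESeq2, -0.038 with upper-quartile scaling, -0.00033 without the filter, -0.0034 with only the 2 groups compared, and -0.047 to 0.044 with a library left out. Bmi1 in the T48h against the T12h rescue had 0.0055 with RLE scaling and with DESeq2, 0.035 with 1 technical column and -0.16 to 0.093 with a library left out. Suz12 in the T48h rescue had -0.00403 against WT with upper-quartile scaling and -0.10 to 0.031 against the KO with a library left out. Cbx2 in the T48h rescue against WT had -0.056 with upper-quartile scaling and -0.00054 to 0.088 with a library left out. In the T12h rescue against WT, Ring1 had 0.048 with 1 technical column and -0.20 to 0.067 with a library left out, and Rnf2 had 0.00017 without chromosome 8 and -0.11 to 0.085 with a library left out. Upper-quartile scaling moved the median of all genes by -0.14 in the T48h rescue against the KO and by -0.12 against WT. A group left with 1 library was assumed to vary like the others. The case counts above include libraries left out of groups outside a comparison, which bear on it only through the shared scaling, filter and spread. No paired analysis was possible because the columns carry neither the duplicate nor the run number.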
